A study of Mus musculus with 9 samples.

Results

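The transcription factor NRF1, encoded by Nfe2l1, and the ATPase p97, encoded by Vcp, act at successive points of the route by which cells make and feed the proteasome. Messenger RNA of 7 genes of this route was followed in MEFs, fibroblasts cultured from mouse embryos: Nfe2l1, Ddi2 and Ngly1, which are NRF1 and its processing enzymes, and Vcp, Nploc4, Zfand5 and Zfand2a, which serve p97 and delivery of substrates. The rule lists the genes by name and uses no measured value, although earlier results of these data were known when it was made, and all 7 were among the 29915 rows of the count table and the 13345 genes tested.

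RNA came from 1 mutator MEF line (5 libraries) and 1 wild-type (WT) MEF line (4 libraries). The 2 lines were untreated and harvested 48 h after seeding in 6-well format, and the libraries of a line are technical replicates of that line. No allele is named in the labels beyond the word mutator. Mice called by that name usually carry a Polg allele without proofreading of mitochondrial DNA, which gene counts cannot show. With 1 line per genotype, p-values measure the spread between libraries of a line, and an effect of the genotype cannot be told apart from other differences between these lines.

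As background, NRF1 is made as a membrane protein of the endoplasmic reticulum (ER) that is normally drawn out into the cytosol by p97 and degraded. When proteasome activity falls short, NRF1 drawn out by p97 escapes degradation. The N-glycanase NGLY1 removes its sugars, the aspartic protease DDI2 cleaves it, and the freed factor turns on the proteasome subunit genes. p97 is a ring-shaped ATPase that pulls ubiquitin-tagged proteins out of membranes and complexes. NPL4 (Nploc4) and its partner UFD1 hold the ubiquitin chain for it, and the AN1-type zinc finger proteins ZFAND5 and ZFAND2A bind the proteasome near the end of the route.

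The depth was 32045662 to 49511365 counts in mutator libraries and 26341230 to 36238653 counts in WT libraries. The lines differed widely, with 97.8% of the variance among genes of at least 10 CPM (counts per 1000000 of a TMM-scaled library) on the first principal component, which separated mutator from WT. Of 12 fibroblast markers, 9 were expressed highly enough for testing, with 7 higher and 1 lower in mutator and a summed level of 18000.0 to 19040.0 CPM in mutator and 10310.0 to 10760.0 CPM in WT. The fibroblast markers Thy1, Dcn and Lum were near or at 0 in each line. The 6 epithelial markers summed to 1.10 to 1.93 CPM in mutator and 100.4 to 109.2 CPM in WT, nearly all of it Krt18. The lists for endothelial, leukocyte, neural and pluripotent cells stayed at or below 5.66 CPM in every library. The part of these differences in the results below was not tested.

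Of the 7 genes, 6 were lower in mutator and Nfe2l1 was higher. The test was edgeR's quasi-likelihood F test with Benjamini-Hochberg adjustment over all genes tested and a threshold of 0.05. All 7 genes passed and in none did the libraries of the lines overlap, but 79.9% of all genes passed and 71.9% did not overlap. Lower calls made up 39.2% of all genes and higher calls 40.7%, so a call by itself says little here and the size and order of the changes carry the description. The median log2 fold change was -0.33 over the 7 genes and 0.01 over all genes. None of the 7 changed by 2-fold, whereas 6.53% of all genes were lower and 11.3% higher by at least that much.

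Promoter sequence is shown for 4 of the genes: Nfe2l1, the regulator of the route and the gene that was higher, and the 3 genes that were lower and hold a core of the heat shock element, the motif bound by heat shock factor 1 (HSF1). Each run is the 250 bases before the annotated start, 5′ to 3′, from RefSeq on GRCm38.p6. Capitals mark the heat shock element core (TTCNNGAA or GAANNTTC), the core of the antioxidant response element (TGANNNNGC), to which factors of the NRF1 family bind, and the cyclic AMP response element (TGACGTCA), searched on both strands. The Nfe2l1 run is the farthest upstream of its 5 entries, at chr11:96829969-96830218 on the minus strand. Vcp is at chr4:43000508-43000757, Nploc4 at chr11:120437701-120437950 and Zfand2a at chr5:139484492-139484741, all on the minus strand.
Nfe2l1: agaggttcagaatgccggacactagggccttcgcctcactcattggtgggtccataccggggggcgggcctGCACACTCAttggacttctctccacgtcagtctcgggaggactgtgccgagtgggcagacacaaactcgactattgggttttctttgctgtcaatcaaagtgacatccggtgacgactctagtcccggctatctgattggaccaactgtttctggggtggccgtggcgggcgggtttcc
Vcp: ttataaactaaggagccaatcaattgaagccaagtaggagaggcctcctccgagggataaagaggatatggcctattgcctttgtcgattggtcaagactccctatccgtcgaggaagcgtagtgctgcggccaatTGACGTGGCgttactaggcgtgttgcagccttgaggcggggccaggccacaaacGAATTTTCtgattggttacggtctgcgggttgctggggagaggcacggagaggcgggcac
Nploc4: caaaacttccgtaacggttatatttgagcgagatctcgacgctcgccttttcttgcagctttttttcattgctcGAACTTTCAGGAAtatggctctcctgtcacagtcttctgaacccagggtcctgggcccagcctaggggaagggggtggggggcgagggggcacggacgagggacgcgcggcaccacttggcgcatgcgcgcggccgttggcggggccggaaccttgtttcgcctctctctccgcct
Zfand2a: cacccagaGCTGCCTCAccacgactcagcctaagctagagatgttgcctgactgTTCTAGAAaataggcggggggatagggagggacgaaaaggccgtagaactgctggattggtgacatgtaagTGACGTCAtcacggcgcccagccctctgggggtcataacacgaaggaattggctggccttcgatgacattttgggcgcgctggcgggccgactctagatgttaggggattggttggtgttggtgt

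The Zfand2a window held TTCTAGAA, 196 bases before the start, and a full cyclic AMP response element 125 bases before it. The Nploc4 window held 2 overlapping cores that together spell GAACTTTCAGGAA, 3 alternating units of the heat shock element. Over 32851 promoter entries of the same length, 12.8% held a heat shock element core, 0.466% the form with 3 units, 35.2% the antioxidant response element core and 1.55% the cyclic AMP response element. A promoter was found for all 7 genes, and the windows of Ddi2 and Ngly1 matched none of these motifs. The Zfand5 window, not shown, held 2 matches to the antioxidant response element core and none to the other motifs. These matches describe the letters in the window and are no evidence of binding.

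**Figure D1:**
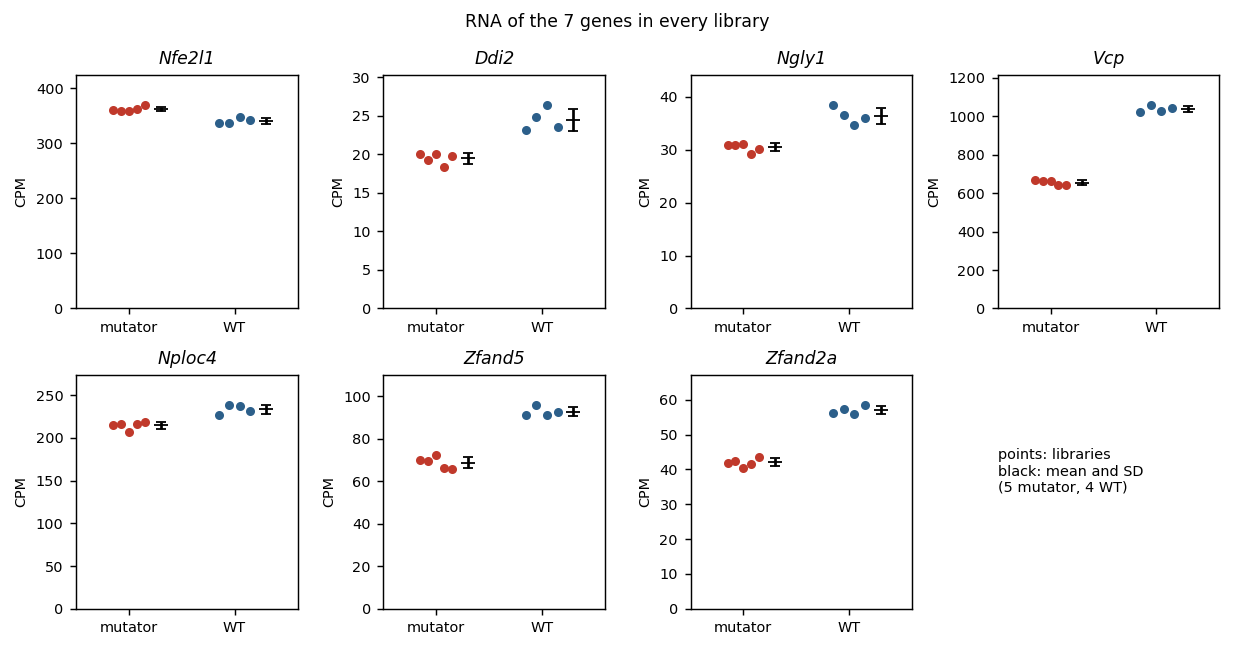
CPM of the 7 genes in each of the 5 mutator libraries (red, left) and 4 WT libraries (blue, right), with the mean and SD in black and each axis from 0. Vcp shows the widest gap, 655 against 1038 CPM on average, and Nfe2l1 is the gene with mutator libraries above WT libraries.

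Nfe2l1 was at 361.1, 358.7, 358.4, 362.7 and 369.3 CPM in mutator libraries 1 to 5, against 337.0, 335.9, 347.9 and 342.5 CPM in WT libraries 1 to 4. The lowest mutator library lay above the highest WT library, with replicate 3 of WT closest to the mutator range. The log2 fold change was 0.09 ± 0.021 (SE, adjusted p = 0.000877), a level 1.06-fold higher in mutator. Nfe2l1 RNA was abundant, above 96.6% of the tested genes in mean CPM, and its change was smaller in size than that of most genes, with 14.3% of genes changing less. The direction depended on the scaling. Relative to the median of chromosome 11 (0.07) the log2 fold change was 0.02 (adjusted p = 0.36), and with GC content and exon length corrected for it stood at -0.05 (adjusted p = 0.0302).

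Ddi2, the protease that releases NRF1 from its membrane anchor, was at 20.002, 19.287, 20.018, 18.385 and 19.762 CPM in mutator, against 23.15, 24.82, 26.41 and 23.61 CPM in the WT libraries. All mutator libraries lay below all WT libraries, and WT varied more, with an SD of 5.95% of the mean against 3.52% in mutator. Ddi2 fell 1.26-fold (log2 fold change -0.33 ± 0.045, adjusted p = 2.71e-06). Ddi2 lies at 141683563 to 141723419 on chromosome 4, whose 784 tested genes had a median of -0.36, and relative to that median it was at 0.03 and did not pass (adjusted p = 0.58). Rsc1a1, a gene in the same exon sequence on the same strand, was listed with 1 to 4 counts per library, and reads shared by both genes may be missing from Ddi2. The paralog Ddi1 had no counts in any library.

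Ngly1, the glycanase that edits NRF1, was at 30.8, 30.93, 31.12, 29.24 and 30.14 CPM in mutator, against 38.41, 36.51, 34.7 and 35.98 CPM in WT. The groups were separate. Ngly1 fell 1.2-fold, a log2 fold change of -0.26 ± 0.036 (adjusted p = 2.76e-06). It too lies on a chromosome with a low median, chromosome 14 at -0.24. Relative to that median it was at -0.02 (adjusted p = 0.647), and corrected for GC content and length at -0.10 (adjusted p = 0.0137). Oxsm, a gene of mitochondrial fatty acid synthesis that overlaps the exons of Ngly1 on the opposite strand, went the other way, with a log2 fold change of 0.96 (adjusted p = 4e-12). Oxsm had 654 to 943 counts per mutator library and 262 to 358 per WT library. The strand setting of the counting is not given in the sources used here, so reads over the stretch the 2 genes share cannot be assigned with certainty.

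Vcp had the largest change of the 7 genes under TMM scaling. Relative to chromosome medians Zfand5 and Zfand2a changed more, at -0.48 each, against -0.31 for Vcp. Vcp was at 666.6, 664.6, 662.3, 642.8 and 640.2 CPM in mutator, against 1023.2, 1058.9, 1030.3 and 1041.3 CPM in WT. The groups were far apart relative to their spread, 655 ± 12.7 CPM in mutator (SD, n = 5) and 1038 ± 15.6 CPM in WT (SD, n = 4). Its level in mutator was 63.1% of that in WT, with a log2 fold change of -0.66 ± 0.022 (adjusted p = 5.05e-15), and 11.7% of tested genes had a lower one. Vcp was above 99.2% of tested genes in mean CPM. Relative to the chromosome 4 median it was at -0.31 (adjusted p = 4.39e-10), and after the GC and length correction at -0.62.

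Nploc4, the ubiquitin-binding adaptor of p97, changed least among the 6 genes that fell under TMM scaling. It was at 215.2, 215.8, 207.3, 216.2 and 218.2 CPM in mutator, against 226.3, 238.0, 237.5 and 231.7 CPM in WT. Replicate 3 was the lowest of the mutator libraries, and the groups did not overlap. Nploc4 fell 1.09-fold (log2 fold change -0.12 ± 0.023, adjusted p = 0.000117). Against the chromosome 11 median it stood at -0.19, and after the GC and length correction at -0.20, both past the threshold.

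The 2 AN1-type zinc finger genes changed by similar amounts. Zfand5, whose protein binds ubiquitin and the 26S proteasome and speeds degradation, was at 70.02, 69.5, 72.35, 66.37 and 65.77 CPM in mutator, against 91.37, 95.69, 91.28 and 92.55 CPM in WT. Zfand5 fell 1.35-fold (log2 fold change -0.43 ± 0.031, adjusted p = 5.18e-10). Zfand2a, the arsenite- and heat-inducible member of the family also called AIRAP, was at 41.83, 42.5, 40.5, 41.59 and 43.6 CPM in mutator, against 56.2, 57.26, 55.97 and 58.38 CPM in WT. Zfand2a fell 1.36-fold (log2 fold change -0.44 ± 0.030, adjusted p = 2.1e-10). In each gene the mutator libraries lay below every WT library. Both lie on chromosomes with medians slightly above 0, chromosome 19 (0.05) and chromosome 5 (0.04), and relative to these they were at -0.48 each.

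**Figure D2:**
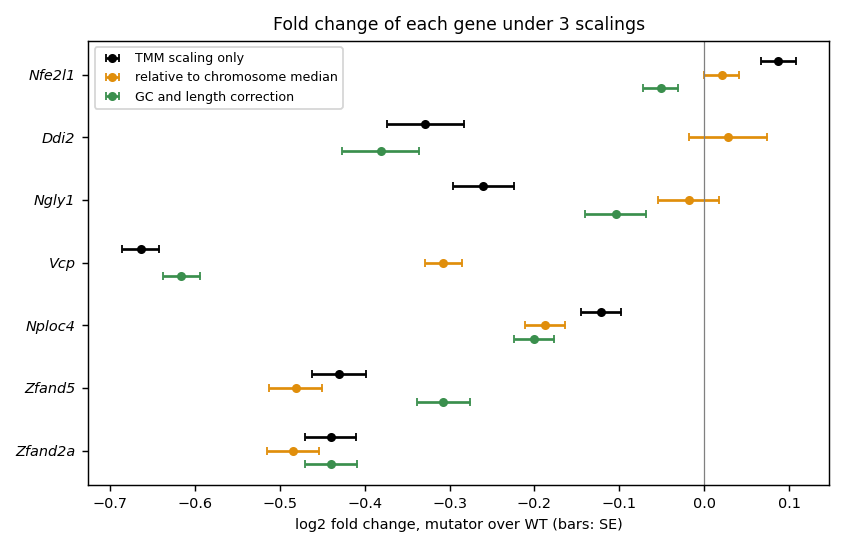
Log2 fold change of mutator over WT with its SE for the 7 genes, under TMM scaling alone (black), relative to the median of the gene's chromosome (orange) and after a GC and length correction (green). Vcp, Nploc4, Zfand5 and Zfand2a stay below 0 by more than 5 times their SE in all 3, Ngly1 is below 0 in all 3 but at -0.02 relative to its chromosome median, and Ddi2 moves from -0.33 to 0.03 and Nfe2l1 from 0.09 to -0.05.

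The count of calls among the 7 genes therefore depended on the scaling. Relative to chromosome medians, 4 passed, all lower, where 79.2% of all genes passed and 39.6% were lower, and after the GC and length correction all 7 passed and were lower, where 80.3% of all genes passed and 38.9% were lower. Vcp, Nploc4, Zfand5 and Zfand2a were the 4 called lower under each scaling, and the share of all genes called lower under each was not counted. Ngly1 and Ddi2 missed the threshold only relative to the low medians of chromosome 14 (-0.24) and chromosome 4 (-0.36).

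The 20 tested genes nearest to each member on its chromosome, 10 on each side, give a more local setting than a whole chromosome, without a test. The contrast depends on the stretch taken: over windows of 10 Mb the median was 0.06 around Nfe2l1 and -0.36 around Vcp, against 0.49 and -0.19 for the 20 nearest genes. The neighbours of Nfe2l1, over 0.87 Mb, mostly rose (17 of 20), while Nfe2l1 itself was at 0.09. Nploc4 was below all 20 of its neighbours, 15 of which rose (median 0.30). Zfand2a was below 18 of 20 and Zfand5 below 16 of 20, with neighbour medians of 0.07 and 0.06. Vcp was below 17 of its 20 neighbours, whose median was -0.19, and the genes on either side of it, Dnajb5 and Fancg, were at -0.31 and -0.06. Ddi2 was below 17 of its 20 neighbours, over 4.34 Mb, whose median of -0.11 was higher than that of the whole chromosome. In the 10 Mb window that holds Ddi2 the median was -0.26, nearer to its own -0.33. The stretch taken up by the 20 neighbours ranged from 0.623 Mb for Nploc4 to 11.7 Mb for Ngly1. Ngly1 lay among its neighbours, above 8 and below 12 of them.

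Within each library, the other 6 genes were higher relative to Vcp in mutator than in WT. Nfe2l1 stood at 54.16, 53.98, 54.11, 56.42 and 57.69% of the Vcp CPM in mutator, against 32.93, 31.72, 33.77 and 32.9% in WT. Nploc4 stood at 32.8 ± 1.11% of Vcp in mutator (SD, n = 5) and 22.5 ± 0.413% in WT (SD, n = 4). On the log2 scale the ratio differed by 0.75 for Nfe2l1, 0.54 for Nploc4, 0.41 for Ngly1, 0.34 for Ddi2, 0.23 for Zfand5 and 0.22 for Zfand2a. In all 6 the libraries of the lines did not overlap, and a two-sided exact permutation test gave p = 0.0159 for each, unadjusted, the smallest that 5 against 4 libraries allow. The 6 ratios share the Vcp values, and 80.5% of all other tested genes were higher relative to Vcp without overlap, so the shift is that of a gene with a larger fall than most.

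**Figure D3:**
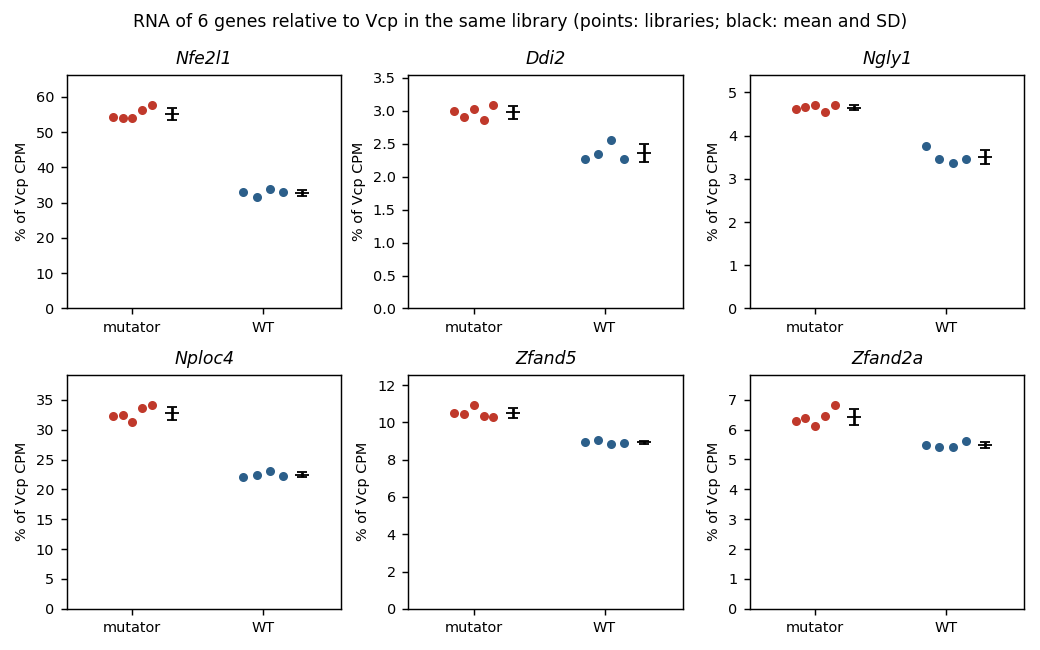
CPM of 6 genes as a percentage of the Vcp CPM of the same library, for 5 mutator libraries (red, left) and 4 WT libraries (blue, right), with the mean and SD in black. Nfe2l1 averages 55.3% in mutator and 32.8% in WT, and Zfand2a 6.41% in mutator and 5.48% in WT.

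Per length, the order of the genes was the same at the top and bottom in each line. Levels between genes are given as CPM per kb of merged exon sequence, with exons from GENCODE M21 on GRCm38. Vcp led with 198 ± 3.84 CPM per kb in mutator and 313 ± 4.7 in WT (SD, n = 5 and n = 4). Nfe2l1 followed with 74.4 ± 0.909 in mutator and 70.03 ± 1.14 in WT, and Nploc4 with 52.1 ± 1.01 in mutator and 56.6 ± 1.34 in WT. Zfand2a was at 13.3 ± 0.362 in mutator and 17.97 ± 0.348 in WT. Ngly1, at 10.4 ± 0.261 in mutator and 12.4 ± 0.525 in WT, and Zfand5, at 9.2 ± 0.364 in mutator and 12.4 ± 0.276 in WT, could not be told apart in WT. Ddi2 was lowest, at 2.04 ± 0.0717 in mutator and 2.56 ± 0.153 in WT; a gene with long exons that cells use only in part reads low on this scale.

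Among 13 tested genes for partners and turnover of NRF1, 6 were higher, 6 lower and Maff did not pass (median -0.02). The median was 0.02 under upper quartile scaling and -0.20 after the GC and length correction, with 6 higher and 7 lower. Nfe2l2, encoding the related factor NRF2, rose 1.43-fold, to 140.4 ± 2.72 CPM in mutator against 98.2 ± 0.902 CPM in WT. Its log2 fold change was 0.51, and it lies on chromosome 2, whose tested genes had a raised median of 0.31. Nfe2l3, encoding NRF3, was low in each line, at 0.284 ± 0.117 CPM in mutator and 0.834 ± 0.0164 CPM in WT (log2 fold change -1.50, edgeR adjusted p = 1.39e-05). The 2 F-box genes whose proteins mark NRF1 for degradation moved apart: Fbxw7 fell 1.79-fold and Btrc rose 1.48-fold. Fbxw7 lies on chromosome 3 and stood at -0.11 with its median removed, against -0.84 without. Cebpb, another basic leucine zipper factor, rose 2.1-fold (log2 fold change 1.07), also on chromosome 2, as Nfe2l2 is. Its level varied in mutator from 5.63 to 10.1 CPM and was lowest in replicates 1 and 2.

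Adaptors of p97 were lower more often than higher, as Vcp was. Of 15 tested, 11 were lower and 4 higher (median -0.32). The median was -0.16 relative to chromosome medians, with 10 lower and 3 higher, and -0.21 after the GC and length correction, with 11 lower and 3 higher. Ufd1l, encoding UFD1, the partner of NPL4, fell 1.27-fold, to 73.1 ± 2.01 CPM in mutator against 92.5 ± 5.07 CPM in WT (log2 fold change -0.34, edgeR adjusted p = 5.99e-08). Nsfl1c, encoding the competing adaptor p47, rose 1.27-fold, but with the median of chromosome 2 removed it stood at 0.03 and did not pass (edgeR adjusted p = 0.26). Plaa, encoding a ubiquitin-binding cofactor of p97, fell 1.64-fold, and Faf1, a UBX-domain adaptor, 1.47-fold; both lie on chromosome 4, as Vcp does, and with its median removed they stood at -0.36 and -0.20, past the threshold. Svip, a small ER protein that inhibits p97-driven degradation, stood apart. It was at 16.5, 16.8, 17.5, 16.5 and 17.0 CPM in mutator, against 0.0555, 0.0, 0.114 and 0.0353 CPM in WT. The 4 WT libraries held 6 counts in sum. The adaptor Ubxn1 was listed at 0 in all 9 libraries.

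Of 10 tested enzymes that process p97 substrates, 6 were lower and 4 higher (median -0.11), a split that turned to 3 lower and 4 higher after the GC and length correction. Ube4b, a ubiquitin chain-extending enzyme, fell 1.54-fold (log2 fold change -0.63, or -0.27 with the chromosome 4 median removed) and the helicase gene Wrn 1.65-fold. Usp13, a deubiquitinase of ER-associated degradation, rose 3.37-fold, to 9.71 ± 0.292 CPM in mutator against 2.88 ± 0.503 CPM in WT.

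Of the AN1-type family, 5 of 6 tested genes were lower and Zfand3 was higher (median -0.37), with 3 lower and 2 higher relative to chromosome medians (median -0.22) and 5 lower and none higher after the GC and length correction (-0.31). Besides Zfand5 and Zfand2a, Zfand6 fell 1.24-fold (log2 fold change -0.31, or -0.15 after the GC and length correction). Zfand1 fell 1.53-fold, but it lies on chromosome 3, with a median of -0.73, and turned to 0.12 relative to it (edgeR adjusted p = 0.0362). Zfand2b, whose protein also binds p97, was at 18.4 ± 0.549 CPM in mutator and 19.9 ± 1.005 CPM in WT (log2 fold change -0.11, edgeR adjusted p = 0.0246). This call was lost under 7 of the 18 alternatives, among them without mutator replicate 2 (adjusted p = 0.0706), without WT replicate 1 (0.103) and without WT replicate 3 (0.0586).

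Factors that carry substrates to the proteasome were lower in 9 of 10 tested genes (median -0.14). Relative to chromosome medians 8 were lower and 2 higher (median -0.16). Under upper quartile scaling 7 were lower and 1 higher (median -0.09). The shuttle gene Rad23b fell 1.52-fold, to 324 ± 2.32 CPM in mutator against 491 ± 11.5 CPM in WT (log2 fold change -0.60, or -0.24 with the chromosome 4 median removed). Ubl4, a gene of the complex that handles mislocalized membrane proteins, fell 1.39-fold. Ubqln4 fell 1.49-fold but turned to 0.15 relative to the chromosome 3 median (edgeR adjusted p = 0.000105). For ER-associated degradation, 12 of 19 were lower, 4 higher and Derl2, Os9 and Erlec1 did not pass (median -0.12). With chromosome medians removed 11 were lower and 3 higher (median -0.08). Ubac2, on chromosome 14, fell 1.38-fold (log2 fold change -0.46, or -0.22 with that chromosome's median removed) and Ube2j2 1.32-fold, while Herpud1 rose 1.3-fold. With the chromosome 4 median removed Ube2j2 stood at -0.05 and did not pass (edgeR adjusted p = 0.206).

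Of 4 tested genes for N-glycans in the cytosol, Ngly1, Fbxo2 and Fbxo6 were lower and Man2c1 was higher (median -0.28), with 1 lower and 1 higher and a median of 0.02 relative to chromosome medians. Man2c1, the mannosidase that trims the glycans that NGLY1 sets free, rose 2.49-fold, to 78.04 ± 2.62 CPM in mutator against 31.4 ± 1.39 CPM in WT. Its log2 fold change was 1.31, on chromosome 9, which had a raised median of 0.40. Fbxo2, which recognizes glycoproteins for ubiquitination, was at 2.12 ± 0.359 CPM in mutator and 13.98 ± 1.2 CPM in WT. Fbxo6 fell 1.23-fold, but turned to 0.06 relative to the chromosome 4 median and did not pass (edgeR adjusted p = 0.202).

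Proteasome subunits, whose genes NRF1 is known to drive, were lower in 12 of 14 core genes and 15 of 19 regulator genes, with medians of -0.28 and -0.24. Psma5 fell 2.19-fold, Psmb4 2.1-fold and Psmb2 1.55-fold in the core, and Psmd4 1.76-fold, Psmd6 1.44-fold and Psmd8 1.36-fold in the regulator. With chromosome medians removed, 13 core and 18 regulator genes were lower and none higher, and Psma5, Psmb4 and Psmd4, on chromosome 3, stood at -0.39, -0.34 and -0.08, against -1.13, -1.07 and -0.81 without. Psmb2, on chromosome 4, and Psmd6, on chromosome 14, stood at -0.27 and -0.28, against -0.63 and -0.52 without. After the GC and length correction, 10 core genes were lower and 3 higher, and 12 regulator genes were lower and 3 higher. Nfe2l1 RNA did not share that direction at 0.09, or at 0.02 relative to the chromosome 11 median (edgeR adjusted p = 0.36). Corrected for GC content and length it was at -0.05, with medians of -0.20 and -0.14 for the lists. RNA counts do not measure NRF1 protein or its processing. The promoter windows of Vcp, Nploc4 and Zfand2a hold a core of the HSF1 motif, and that of Zfand5 does not. Heat shock genes linked to HSF1 were lower in 8 of 12 and higher in 2 (median -0.23). Hspa1a and Hsp90aa1 were not past the threshold. Hsph1 fell 1.93-fold and Hspa4 1.31-fold, Hspb1 rose 2.65-fold, and Hsf1 itself rose 1.12-fold, to 78.8 ± 4.74 CPM in mutator against 70.6 ± 3.84 CPM in WT. The Hsf1 call was lost with the GC and length correction and a replicate block together (edgeR adjusted p = 0.0542).

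**Figure D4:**
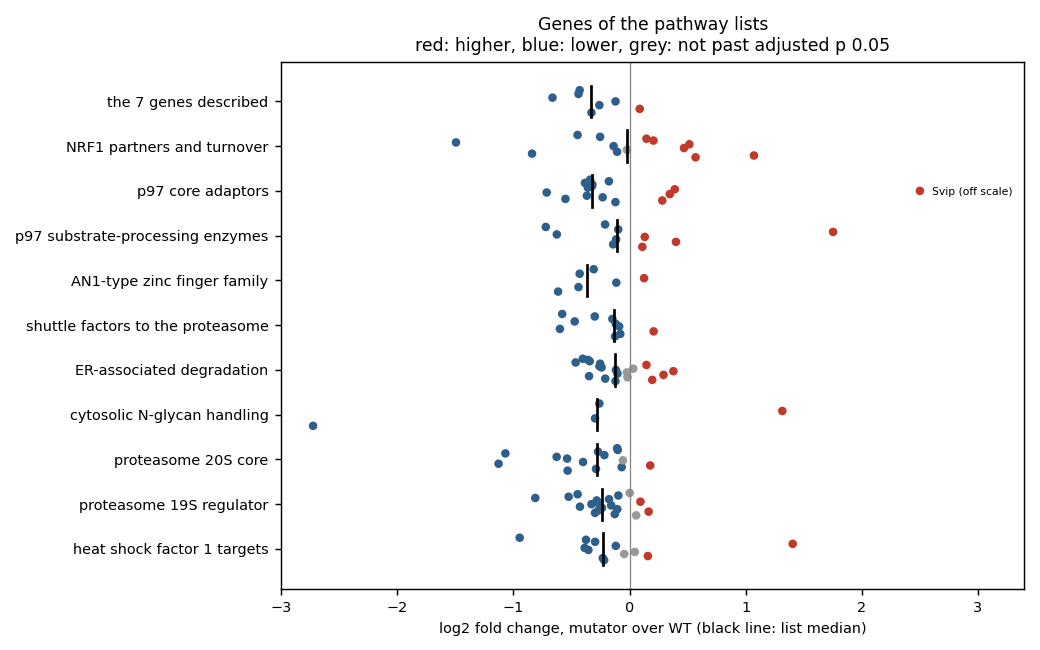
Log2 fold change of mutator over WT for each tested gene of the 7 described and of 10 pathway lists, with red for higher, blue for lower and grey for not past the threshold, and a black line at the list median. The medians of the p97 adaptors and of the AN1-type family, -0.32 and -0.37, lie near the -0.33 of the 7 genes, and relative to chromosome medians the 3 are -0.16, -0.22 and -0.19. The AN1-type list shares Zfand5 and Zfand2a with the 7 genes, so part of that nearness is built in. Svip lies beyond the axis.

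The genes most like each member across the 9 libraries, by Pearson correlation of log2 CPM among 8464 genes of at least 10 CPM, were Nfib (r = 0.9997) and Ptprk (0.9996) for Vcp. For Zfand5 they were Ccdc47 (r = 0.997) and Cyld (0.9969), for Zfand2a U2af1 and Cd63 (0.9986 each), and for Ngly1 Ube2k (0.992) and Rbm41 (0.9912). For Nfe2l1 they were Smad7 (0.9908) and Scamp2 (0.9858), for Ddi2 Fam101b (0.9878) and Tube1 (0.9786), and for Nploc4 Dna2 (0.987) and Zbtb39 (0.9863). The libraries form 2 clusters, 1 per line, so each r describes the gap between the lines, and 2347 genes had r of at least 0.95 with Vcp, against 41 with Nploc4.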

How the data were processed

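The deposited file holds raw counts per gene and library, made by the authors with STAR 2.4.2a, HTSeq and build mm10, per the submitters' processing notes. No source used here gives the annotation, the strand setting or the treatment of multiply mapped reads. Poly(A)-selected, strand-specific libraries from 1 µg of RNA were read as 150 bp pairs, per the labels' protocols. Sample descriptions name 9 of the columns, and 5 columns of no sample were not used.

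After filterByExpr and TMM scaling, edgeR 4.0.16 (R 4.3.3) tested mutator against WT with group as the only term. CPM use the TMM-scaled library sizes, and each SE is the absolute log2 fold change over the root of its F statistic. The fit was tested on simulated data in which few genes changed, whereas most genes passed here. All 16 pairs of libraries within a line differed by more than sampling noise (chi-square over degrees of freedom, 2.49 to 12.4), and each counted as 1 sample. Alternatives were RLE and upper quartile scaling, DESeq2 1.42.0, 2 filters on low counts, a replicate block, leaving out each library, and offsets for the chromosome median (RefSeq GRCm38.p6, 12502 tested genes with a chromosome) and for a loess trend on GC content and exon length (GENCODE M21, 12460 genes).

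The members and lists were chosen with earlier results of these data known. Of 177 list entries, 172 were found. Besides the members, the text names the 3 largest changes past the threshold per list at a mean of at least 1 CPM, plus Ufd1l, Nsfl1c, Nfe2l2, Nfe2l3, Zfand6, Zfand2b and Hsf1, and the 2 genes most alike each member; adjacent and overlapping genes, and members of small groups within a list that did not follow the rest, were chosen after their values were seen. A gene of 1 list that meets these criteria is not reported here.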

Additional observations from a re-analysis of the deposited data

Results flagged for a closer look

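Among 96 groups of libraries examined for a library far from the others, 4 were marked, and chance marks about 1 in 20. Nploc4 was lowest in mutator replicate 3, at 207.3 CPM against 215.2 to 218.2 CPM in the other mutator libraries. Nfe2l2 was highest in mutator replicate 5, at 145.2 CPM against 139.0 to 139.5 CPM in the others. Ubac2 was highest in mutator replicate 4, at 42.89 CPM against 40.21 to 40.84 CPM in the others. Ubqln4 was highest in WT replicate 3, at 156.7 CPM against 147.7 to 148.9 CPM in the others.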

How the results depend on the processing

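Relative to chromosome medians, 4 of the 7 genes passed the threshold and none was higher: Nfe2l1 was at 0.0208, Ngly1 at -0.0185 and Ddi2, with its sign turned, at 0.028. With the GC and length correction 0 genes were higher, and Nfe2l1 turned to -0.0512, or -0.0583 with the replicate block added (edgeR adjusted p = 0.0302 and 0.0447). The cause was not tested. Vcp, Nploc4, Zfand5 and Zfand2a kept their direction and side of the threshold in all 18 alternatives, from -0.67 to -0.31, -0.21 to -0.08, -0.48 to -0.29 and -0.48 to -0.40. Without each library in turn, Nfe2l1 ranged from 0.07 to 0.09, Ddi2 from -0.36 to -0.30, Ngly1 from -0.29 to -0.23, and all 7 genes passed. The ratios to Vcp kept their direction in every such run, with exact permutation p of at most 0.0357, each the smallest that the libraries left allow. These ratios were not taken relative to chromosome medians, where Zfand5 and Zfand2a, at -0.48 each, lay below Vcp at -0.31. The count of genes past the threshold ranged from 7831 to 11596 over the alternatives, with 10665 as reported. With the replicate number as a block, 10481 genes passed and Nfe2l1 was at 0.08 (edgeR adjusted p = 0.00794). The same-numbered libraries correlated in their deviations at -0.168, 0.224, -0.166 and 0.0426. Pairs with different numbers ranged from -0.53 to 0.454. These values showed no pairing by number, and with so wide a range they cannot exclude one. Upper quartile scaling shifted the median of all genes to 0.06, from 0.01. Of 35 other genes named by rule, Fbxo6, Ubqln4 and Zfand1 turned sign in an alternative, as given above. The 7 genes had 640 to 36865 counts per library, whereas Nfe2l3 had 62 counts in sum over mutator libraries and Svip 6 over WT libraries, which limits the precision of their fold changes.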
